A study of Homo sapiens with 4 samples.

Results

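The genes described here are 37 published targets of miR-429, or of its seed relatives miR-200b and miR-200c, taken from a list that leaves out the ZEB and other regulators of the epithelial-mesenchymal transition. They were taken by name, with no measured value in the rule, but the list was drawn up with earlier results of these arrays known. Of the 37, 36 were measured by a probe set that carries 1 gene symbol and 1 was not analysed here. The brightest such probe set stood for each gene, out of 19775 genes on the array. A gene counted as expressed when its mean log2 signal over the 4 arrays was at or above the median probe set, a signal of 52.9, called the filter below. By that rule 30 of the 36 measured targets were expressed, among 13180 expressed genes.

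The cells were HCCLM3, a human hepatocellular carcinoma line, sorted magnetically by EpCAM, an epithelial adhesion molecule by which tumour-initiating liver cancer cells are often isolated. The EpCAM-negative fraction was transfected with a miR-429 mimic (a duplex RNA that acts as the microRNA) or with a negative-control mimic, the NC mimic, each at 100 nM. To the medium of the EpCAM-positive fraction was added antagomir-429, a cholesterol-conjugated RNA antisense to miR-429, or an NC antagomir, each at 40 µM. Treatment lasted 4 days in serum-containing medium, and each of the 4 groups is a single Affymetrix U133 Plus 2.0 array of 1 cell line. The mimic and the antagomir were thus given to different sorted fractions by different routes, so fraction, agent and delivery cannot be told apart between the pairs. The title of the series states the search for miR-429 targets as its purpose.

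MicroRNAs guide Argonaute proteins to messenger RNAs, mostly through pairing of the seed, bases 2 to 8 from the 5′ end, with sites in the 3′ untranslated region. Pairing usually lowers the protein output of the target, and often its mRNA. The miR-200 family is best known for keeping epithelial cells epithelial by repressing ZEB1 and ZEB2, and a second class of its reported targets acts on actin, adhesion, growth factor signalling and cell survival. Below, the target direction means a negative ratio for the mimic together with a positive ratio for the antagomir, as a target whose mRNA responds would give.

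The mature sequences show why targets of these microRNAs were listed together, with the seed in capitals and all letters from RefSeq (GRCh38.p14).
hsa-miR-429: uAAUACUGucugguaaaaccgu
hsa-miR-200b-3p: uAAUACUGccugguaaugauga
hsa-miR-200c-3p: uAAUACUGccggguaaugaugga
hsa-miR-200a-3p: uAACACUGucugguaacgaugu
hsa-miR-141-3p: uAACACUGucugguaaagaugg
The first group, miR-429, miR-200b-3p and miR-200c-3p, has an identical seed. MIR429 lies on chromosome 1 at chr1:1169055-1169076 on the plus strand, near MIR200B, and MIR200C lies on chromosome 12. Outside the seed miR-200b-3p differs from miR-429 at 6 positions and miR-200c-3p at 7, counted from 1 at the 5′ end, the first of them being U9C in both. The other seed group, miR-200a-3p and miR-141-3p, carries the seed substitution U4C, and published targets of that group alone were not listed. Untranslated regions of the targets were not used here, so the number of seed sites in each transcript is not given.

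Each array had been scaled by the authors to a trimmed mean signal of 500.1, and the share of probe sets reaching the filter ran from 54.2% to 55.9%. With 1 array per group there is no spread between replicates, no p-value is given, and every ratio below compares 2 arrays. In such bulk samples fewer cells of a type and less RNA per cell cannot be told apart. How far genes scattered depended on signal: in 4 equal bins of expressed genes by mean signal, ratios had a robust SD that went from 0.82 in the dimmest bin to 0.365 in the brightest with the mimic, and from 0.79 to 0.15 with the antagomir. From the dimmest bin to the brightest, the bins held 5, 12, 7 and 6 targets. On the labels, EPCAM mRNA was 1.12 times as high on the EpCAM-positive NC antagomir array (1235) as on the EpCAM-negative NC mimic array (1106), and was 3838 with the miR-429 mimic and 913 with antagomir-429. Of 5 measured epithelial markers 3 were expressed. The keratins KRT8 and KRT18 had signals of 28365 or more on every array, while the biliary keratin KRT19 stayed at or under 12.4. CDH1, or E-cadherin, did not pass the filter. Its signals were 3.9 with the NC mimic, 61.5 with the miR-429 mimic, 68.7 with the NC antagomir and 53.9 with antagomir-429. Of 9 measured hepatic lineage markers 2 were expressed and their summed signal lay between 438 and 534, with albumin, ALB, between 4.0 and 51.0. These arrays thus show few of the defining genes of the labelled lineage. Of 4 measured leukocyte markers 2 passed the filter, with summed signals from 153 to 264 and PTPRC, the pan-leukocyte CD45 antigen, from 3.2 to 35.7. Of 6 measured endothelial and stromal markers 5 were expressed, among them PECAM1 (126 to 234) and ACTA2 (292 to 477). They summed to between 7793 and 11345 with the sixth included, most of it the collagen COL1A1 (7162 to 10500.0). The part of these markers in the ratios below was not tested.

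With the miR-429 mimic the published targets were not lower as a set, and none was lower by 2-fold by its brightest probe set. Of 30 expressed targets 20 were above 0 and 10 below, against 49.9% of all expressed genes above 0, and their median log2 ratio was 0.16, against -0.0016 over all expressed genes. Past 2-fold by the measured signals, 1 target was higher (NCAM1, 3.33%) and 0 were lower, where 5.25% of all expressed genes were higher and 3.76% lower. The NC mimic signal of NCAM1 was under the filter, however. With every such signal raised to the filter, a setting added after the data were seen, 0 targets were 2-fold higher against 4.2% of genes. NCAM1 was at least 1.81-fold higher. Dimmer probe sets of QKI, KIDINS220 and XIAP were past 2-fold higher, as given below with the probe sets. At 1.5-fold, 8 were higher (ERRFI1, ETS1, KLHL20, LOX, MAML3, NCAM1, QKI and XIAP) and 2 lower (BCL2 and LEPR), that is 26.7% and 6.67% of the targets against 14.5% and 10.9% of expressed genes. With the arrays centred on the median expressed probe set, the median of all genes moved to -0.11 and that of the targets to 0.054, and 4.17% of genes were then 2-fold higher and 4.76% lower. Centring takes 1 constant from each array, so it cannot change the distance between the targets and all genes. With quantile normalization, which can, the medians were 0.10 for the targets and -0.03 for all genes.

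With antagomir-429 the targets were spread on both sides of 0 and none was past 2-fold in either direction by its brightest probe set. There, 17 of 30 were above 0, against 51.1% of expressed genes, with a median log2 ratio of 0.06, against 0.0068 over all genes. No target was 2-fold higher, where 3.72% of genes were, and none was 2-fold lower, where 3.53% were. At 1.5-fold by the measured signals 3 were higher (NCAM1, RND3 and SOX2), 10.0% against 9.35% of genes, and BCL2 was lower, 3.33% against 8.29%. The NC antagomir signal of NCAM1 was under the filter, and with such signals raised to it RND3 and SOX2 alone were 1.5-fold higher, 6.67% against 8.35% of genes. These shares lie near the background for higher genes and below it for lower ones, and 1 target stands for 3.33%.

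Each target was also set against genes of like signal, which is a looser limit than 2-fold where the robust SD is small, as in the brightest bin with the antagomir. Past 2 robust SDs of its signal bin, a rule chosen after the data were seen, ERRFI1 was above with both agents, and 0 targets were below with either. The share of all expressed genes past that limit was 3.89% above and 2.22% below with the mimic, and 4.61% above and 4.3% below with the antagomir. ERRFI1 lay 2.71 SDs above its bin's median with the mimic and 3.76 with the antagomir. With each agent taken alone, a single such target in 30 is a share of 3.33%, near the background values above the limit. The share of genes above it with both agents is not given, and ERRFI1 was under 2-fold with both.

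**Figure D1:**
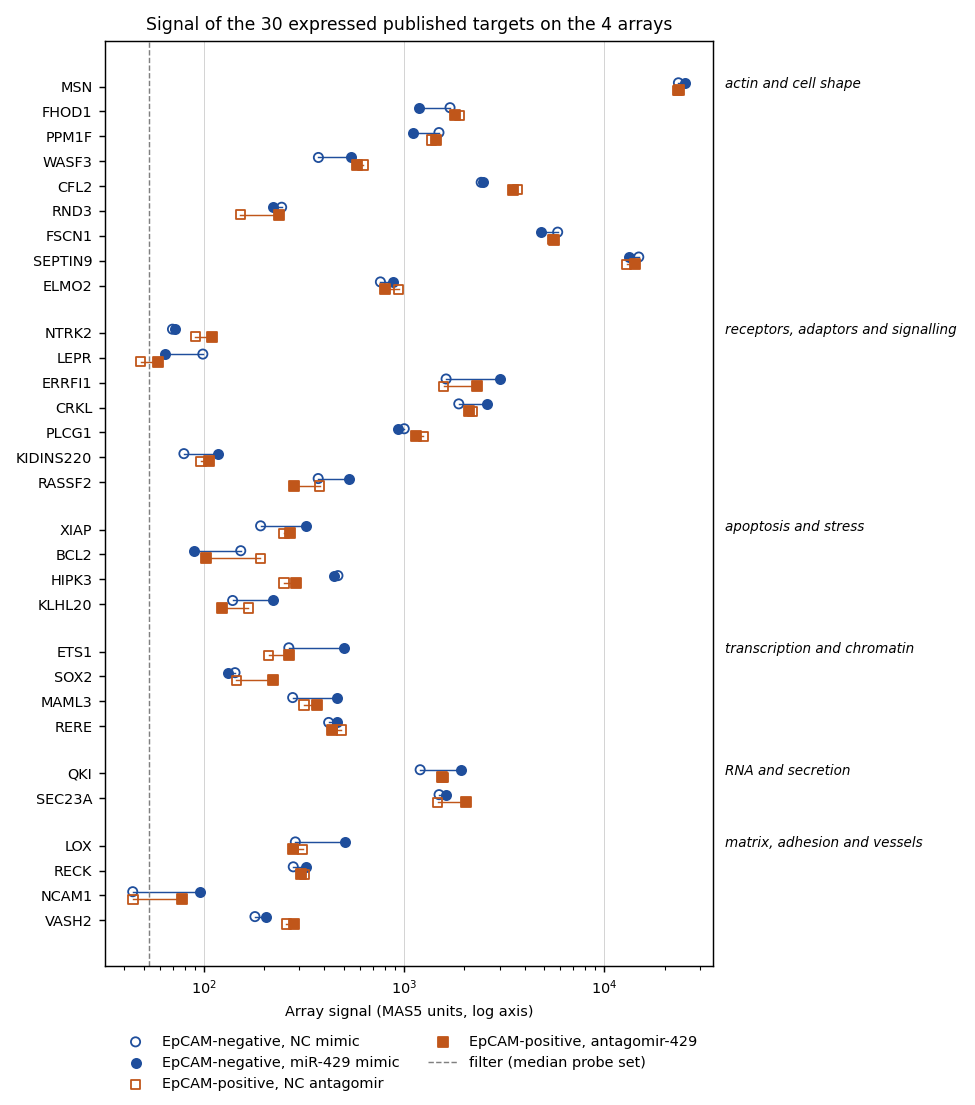
Signal on the 4 arrays (MAS5 units, log axis) of the 30 expressed published targets, grouped by role. Open and filled circles are EpCAM-negative cells with the NC and miR-429 mimic, open and filled squares are EpCAM-positive cells with the NC antagomir and antagomir-429, lines join each treated array to its control, and the dashed line is the filter at 52.9. ETS1, LOX and XIAP show filled circles to the right of the other 3 symbols, and BCL2 shows both filled symbols to the left of their controls.

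The pairs of arrays share none, so the directions of both ratios can be set beside each other. In the target direction were 7 of 30 targets (FSCN1, HIPK3, LEPR, PPM1F, RND3, SEPTIN9 and SOX2), 23.3% against 23.2% of all expressed genes. The reverse pattern, higher with the mimic and lower with the antagomir, held 10 targets, 33.3% against 22.0%. Another 10 were higher with both, 33.3% against 27.9%, and 3 (BCL2, FHOD1 and PLCG1) were lower with both, 10.0% against 26.9%. With both movements past 1.5-fold, 0 targets were in the target direction, where 1.63% of genes were. The share of published targets in the target direction was therefore the share of expressed genes at large.

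Targets were ranked by the smaller of their opposite movements, which is the most that both agents showed. LEPR, the leptin receptor, ranked first with a mimic log2 ratio of -0.62 and an antagomir ratio of 0.28. Its signals were 98.8 with the NC mimic, 64.2 with the miR-429 mimic, 48.4 with the NC antagomir and 59.0 with antagomir-429. The NC antagomir array was under the filter, so the antagomir difference is at least 1.12-fold, and the highest of the 4 values is the EpCAM-negative control. SEPTIN9, a filament-forming GTPase, came next with a smaller movement of 0.14, followed by RND3 (0.14), SOX2 (0.12), PPM1F (0.09), HIPK3 (0.06) and FSCN1 (0.02). Each smaller movement was under the robust SD of its own comparison and signal bin, by a narrow margin in SEPTIN9 (0.14 against 0.15). At the other end of this order stood NCAM1 (-1.12 by measured signals), ETS1 (-0.92) and BCL2 (-0.90), whose ratios shared a sign.

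**Figure D2:**
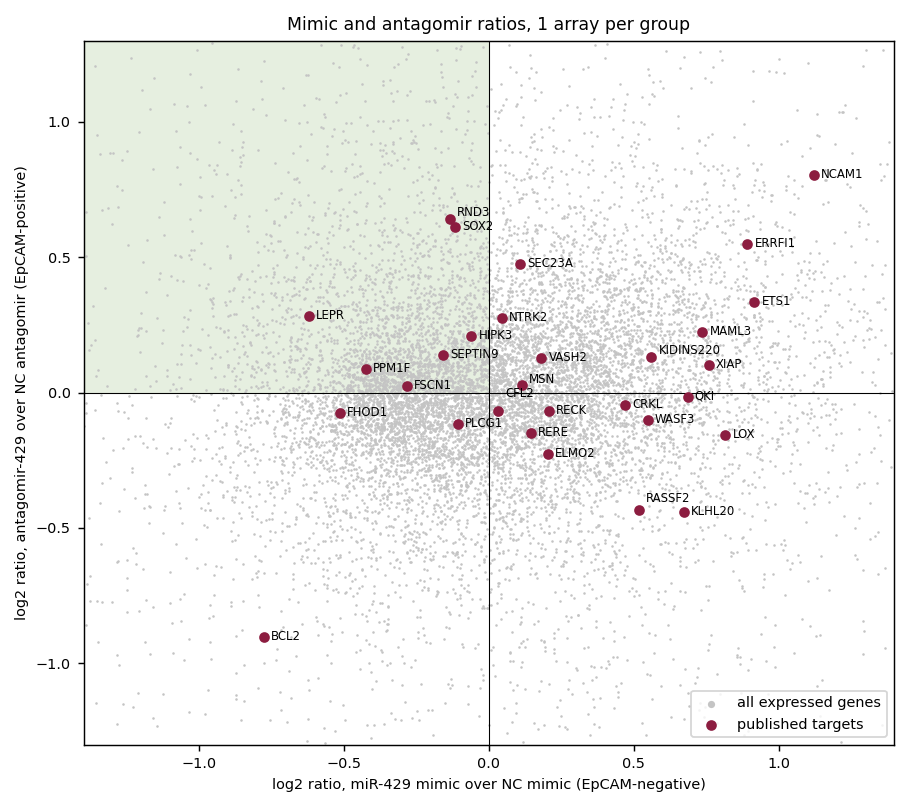
Log2 ratio between the mimic arrays of EpCAM-negative cells, miR-429 over NC (x axis) against that of antagomir-429 over the NC antagomir in EpCAM-positive cells (y axis). Red points are the 30 expressed published targets, grey points all expressed genes within the axis limits, and the shaded area is the target direction, which holds 7 targets against 10 in the lower right.

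The signals that follow are in the order NC mimic, miR-429 mimic, NC antagomir and antagomir-429. SOX2, a pluripotency factor, had signals of 143, 132, 145 and 222. Its control arrays and the mimic array were alike, and only the antagomir array was higher, a log2 ratio of 0.61 against -0.12 with the mimic. Of the 4 SOX2 probe sets only this one passed the filter, so choices among passing sets could not change its value. Its direction was the same with median centring (-0.22 and 0.58) and with quantile normalization (-0.18 and 0.56). It also held against the NC array of the other fraction (-0.14 and 0.635). A dimmer SOX2 set that did not pass had the reverse pattern, with signals of 11.8, 69.4, 71.4 and 6.95. Taken against the filter, that is a rise of at least 1.31-fold for the mimic pair and a fall of at least 1.35-fold for the antagomir pair. The other SOX2 sets were under the filter on every array, with measured ratios in the target direction (-1.19 and 1.44, and -0.36 and 0.08).

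Regulators of actin and cell shape formed the biggest role group, and its expressed members were divided with both agents. Of 10 listed 9 were expressed, 5 below 0 and 4 above with the mimic (median log2 ratio -0.14), and 4 below and 5 above with the antagomir (median 0.02, or -0.01 with median centring). FHOD1, a formin that assembles actin filaments, had signals of 1696, 1187, 1884 and 1788. It was the most negative of the group with the mimic (-0.52), and its antagomir ratio was -0.08, so the miR-429 mimic array alone stood below the other 3. PPM1F, a phosphatase that acts on the PAK kinases, had signals of 1493, 1112, 1366 and 1450.0, again lowest with the mimic (-0.42) and little changed by the antagomir (0.09). FSCN1, or fascin, which bundles actin in filopodia, had 5849, 4808, 5513 and 5607, with ratios of -0.28 and 0.02. By the brightest probe set of all 3, the mimic array was the lowest of the 4 and the other arrays lay close together. Dimmer sets did not all share that order. The second FSCN1 set had 3388, 2385, 2735 and 2391, lower with the antagomir too (-0.19). Of 4 passing PPM1F sets, 3 were lower with the mimic and 1 was higher with the antagomir.

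The remaining cell-shape targets did not share that order. RND3, a small GTPase that opposes stress fibres, had signals of 244, 223, 152 and 238: the NC antagomir array was low and the other 3 were alike, which gives ratios of -0.14 and 0.64. SEPTIN9 had 14864, 13327, 12951 and 14261 (ratios -0.16 and 0.14), with differences of at most 1.12-fold within a pair. MSN, moesin, which links actin to the membrane, had 23457, 25376, 23131 and 23566 and moved by 0.11 and 0.03. CFL2, a cofilin that severs actin filaments, had 2427, 2479, 3674 and 3508. It differed more between the pairs, which differ in fraction, agent and delivery, than within either pair (0.03 and -0.07). WASF3, which activates the Arp2/3 actin nucleator, had 373, 545, 623 and 581, where the NC mimic array was low and the other 3 were alike. That gives WASF3 a mimic ratio of 0.55 and an antagomir ratio of -0.10. ELMO2, which activates Rac together with DOCK proteins, had 761, 877, 939.8 and 804 (0.20 and -0.23).

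Receptors, adaptors and signalling enzymes split with the mimic much as all expressed targets did, 5 of 7 above 0 against 20 of 30. Of 9 listed 7 were expressed, 5 above 0 and 2 below with the mimic (median 0.47), and 4 above and 3 below with the antagomir (median 0.13). ERRFI1, or MIG6, a feedback inhibitor of the EGF receptor, had signals of 1621, 3009, 1577 and 2305. Both treated arrays exceeded both controls, by 1.86-fold with the mimic (0.89) and 1.46-fold with the antagomir (0.55), so the direction was the same for the microRNA and for its inhibitor. CRKL, an SH2-SH3 adaptor, had 1875, 2599, 2189 and 2119 (0.47 and -0.05), highest with the mimic. PLCG1, the phospholipase recruited by growth factor receptors, had 1002, 929, 1247 and 1150.4, with ratios of -0.11 and -0.12 and a higher level in both EpCAM-positive arrays.

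RASSF2, a RAS-binding tumour suppressor, had signals of 372, 533, 379 and 281. Its controls were alike, with the mimic array above them (0.52) and the antagomir array below (-0.43), the reverse of the target direction. KIDINS220, a scaffold of neurotrophin receptors, was dim at 79.4, 117, 96.8 and 106 (0.56 and 0.13). NTRK2, the receptor for brain-derived neurotrophic factor, was dim as well, at 69.6, 71.8, 90.4 and 109 (0.04 and 0.27). Both therefore sit in the bin where genes scattered most.

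Among survival and stress genes XIAP and BCL2 went opposite ways with the mimic. XIAP, a caspase inhibitor and reported target of miR-200b, miR-200c and miR-429, had signals of 192, 325, 251 and 269.7, a mimic ratio of 0.76 and an antagomir ratio of 0.10. BCL2, the founding antiapoptotic protein of its family, had 153, 89.1, 191 and 102. Both treated arrays were lower than both controls, by 1.71-fold with the mimic (-0.78) and 1.87-fold with the antagomir (-0.90), so here too the agents pointed the same way. HIPK3, a nuclear kinase, had 467, 448, 251 and 290.0, differing more between the pairs than within either (-0.06 and 0.21). KLHL20, a ubiquitin ligase adaptor, had 139, 222, 166 and 122 (0.67 and -0.44), highest with the mimic and lowest with the antagomir. A second KLHL20 probe set past the filter had 76.1, 93.3, 54.7 and 122 (0.29 and 1.15), so its antagomir ratio was positive and past 2-fold. The direction of KLHL20 with the antagomir thus depended on the probe set. All 4 listed genes of this group were expressed, 2 on each side of 0 with each agent.

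Of 8 listed transcription and chromatin genes 4 were expressed on this measure, with median ratios of 0.44 for the mimic and 0.28 for the antagomir. ETS1, a factor that drives angiogenic and invasive gene programmes, had signals of 266, 501, 211 and 266. The mimic array was 1.89-fold above its control (0.92) and above the other arrays too, and the antagomir ratio was 0.34. MAML3, a Notch coactivator, had 278, 463, 316 and 369, higher with both agents by its brightest probe set (0.74 and 0.22). Its second set past the filter had 134, 131, 16.5 and 42.4, a mimic ratio of -0.04, with both signals of the antagomir pair under the filter. RERE, a nuclear receptor corepressor, had 419.9, 464, 485 and 437 by its brightest probe set, alike on all arrays (0.14 and -0.15). Its second, dimmer set past the filter had 60.6, 94.5, 122 and 48.8, a mimic ratio of 0.64. The antagomir-429 signal of that set was under the filter, at least 2.31-fold below its control. With SOX2, 3 of the 4 were above 0 with each agent.

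QKI and SEC23A, both often cited as targets of the miR-200 seed, were not lower with the mimic by their brightest probe sets. QKI, an RNA-binding regulator of splicing, had signals of 1203, 1934, 1566 and 1550.2, a mimic ratio of 0.69 and an antagomir ratio of -0.01. All 5 of its probe sets past the filter were above 0 with the mimic. SEC23A, a coat protein of secretory vesicles, had 1495, 1611, 1475 and 2048, where 3 arrays were alike and antagomir-429 was higher (0.11 and 0.47). Its second, dimmer probe set had 189, 125, 179 and 344, which is the target direction (-0.60 and 0.94). The sets of SEC23A therefore differed in the sign of the mimic ratio and shared that of the antagomir ratio.

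All 4 targets of the matrix, adhesion and vessel group were above 0 with the mimic (median 0.51), and 2 were with the antagomir (median 0.03, or -0.0041 with median centring and -0.0094 with quantile normalization). LOX, the enzyme that crosslinks collagen and elastin, had signals of 286, 504, 312 and 279.8, a ratio of 0.82 with the mimic alone (-0.16 with the antagomir). RECK, a membrane inhibitor of matrix proteases, had 279, 323, 319 and 305 (0.21 and -0.07). VASH2, an angiogenic vasohibin and tubulin carboxypeptidase, had 179.8, 204, 258 and 283 (0.18 and 0.13). NCAM1, a neural adhesion molecule, had 44.1, 96.0, 44.2 and 77.3. Its controls were both under the filter and its treated arrays above it, at least 1.81-fold with the mimic and 1.46-fold with the antagomir. A second NCAM1 probe set of nearly the same mean level had 65.9, 56.5, 79.2 and 47.3, lower with the mimic (-0.22) and with antagomir-429, whose array was under the filter, so the direction of NCAM1 depended on the probe set.

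Another 6 measured targets did not pass the filter and are given without ranking. PTPN13, a tyrosine phosphatase, had signals of 47.0, 42.8, 45.8 and 42.0, and ZFPM2, a GATA cofactor, had 42.3, 34.5, 32.0 and 28.5, all 4 arrays being under the filter in both. MAML2, a paralogue of MAML3, lay close to the filter at 42.8, 59.4, 53.3 and 53.7. DLC1, a tumour suppressor of cell motility, was above it only with the NC antagomir (48.4, 30.1, 93.3 and 49.2), at least 1.76-fold over antagomir-429. ONECUT2, a hepatic and neuronal factor, had 56.1, 44.7, 113 and 14.5, at least 2.14-fold lower with antagomir-429. Other, dimmer sets of DLC1 and ONECUT2 went both ways with the antagomir. For DLC1 these included a set at least 1.21-fold higher and another at least 1.16-fold lower. For ONECUT2 they included a set that went from 56.7 to 74.7 and another at least 2.06-fold lower. PTPRD, a receptor phosphatase, had 9.43, 107, 63.5 and 10.9, where its miR-429 mimic signal was at least 2.02-fold above the control and its antagomir-429 signal at least 1.20-fold below.

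Different probe sets of a target often disagreed. The 36 measured targets had 123 probe sets, of which 68 passed the filter. Among 20 expressed targets with 2 or more passing sets, all sets lay on the same side of 0 in 7 with the mimic and in 7 with the antagomir, and the other 10 expressed targets had 1 passing set each. XIAP, with 6 passing sets, had 5 above 0 with the mimic (0.44 to 1.43) and 1 below (-0.93), and its antagomir ratios ran from -1.18 to 0.70 in 5 sets. In the remaining set the NC antagomir signal was under the filter (11.8 against 88.5 with antagomir-429), at least 1.67-fold higher. KLHL20, with 3 passing sets, had antagomir ratios of -0.44, 1.15 and -0.32. BCL2 had 2 sets lower with both agents (-0.78 and -1.0 with the mimic, -0.90 and -0.46 with the antagomir) and 1 set higher with both (0.78 and 0.48). PPM1F ranged from -0.95 to 0.32 with the mimic over 4 sets, and ETS1 had 2 sets above 0 (0.92 and 0.71) and 1 below (-0.35). CRKL, ELMO2, LOX, QKI and RERE were above 0 by every passing set with the mimic, and FSCN1 (-0.28 and -0.51) and PLCG1 (-0.11 and -0.78) below 0 by both of theirs. In all, 16 of the 68 passing sets were in the target direction, and in 4 targets every passing set was: HIPK3, LEPR, RND3 and SOX2, each with 1 passing set. By measured signals 5 passing sets were 2-fold higher with the mimic and 1, of BCL2, was lower. With the antagomir 4 were 2-fold higher and 2 lower. A dimmer set each of QKI (1.14), KIDINS220 (1.13) and XIAP (1.43) was 2-fold higher with the mimic with both mimic-pair signals above the filter. Another XIAP set (at least 2.34-fold) and the brightest NCAM1 set (at least 1.81-fold) had an NC mimic signal under it. Among the sets higher with the antagomir, only that of KLHL20 had both signals above the filter. The share over all probe sets is not given, so these counts of probe sets have no background to be set against.

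**Figure D3:**
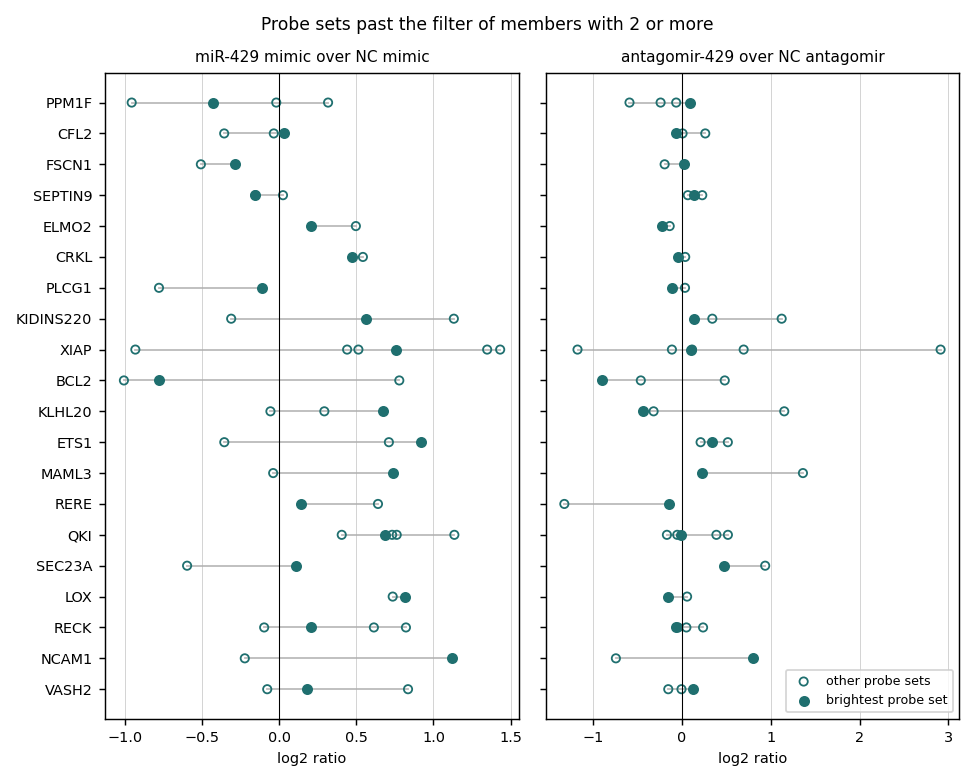
The log2 ratio (x axis) of each probe set past the filter, for the 20 expressed targets that have 2 or more (rows), with the mimic on the left and the antagomir on the right. Filled points are the brightest probe set, open points the others, and grey lines their range; ratios against a signal under the filter are drawn as measured. XIAP spans -0.93 to 1.43 on the left and QKI lies wholly to the right of 0 there.

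The NC arrays themselves differed for some targets, which bears on each ratio taken against them. Of 30 targets, 0 were 2-fold higher on the EpCAM-positive NC antagomir array than on the EpCAM-negative NC mimic array and LEPR was 2-fold lower by measured signals, against 3.62% and 4.7% of all expressed genes. The NC antagomir signal of LEPR was under the filter, so it was at least 1.87-fold lower, and with such signals raised to the filter 0 targets were 2-fold lower against 3.54% of genes. Next in size were HIPK3 (-0.90), WASF3 (0.74), RND3 (-0.68) and CFL2 (0.60). With the NC array of the other fraction as the control, a comparison that shares its arrays with those above, the mimic ratio changed sign in 10 of 30 targets and the antagomir ratio in 15. LEPR was then at least 1.21-fold higher with the mimic, with an antagomir ratio of -0.74, and RND3 had 0.55 and -0.04, both out of the target direction. HIPK3 (0.83 and -0.69) and SEPTIN9 (0.04 and -0.06) left it too. So did PPM1F (-0.30 and -0.04) and FSCN1 (-0.20 and -0.06), by small antagomir ratios. Of the targets in the target direction by the main values, SOX2 alone stayed in it. The 8 targets that were 1.5-fold higher with the mimic stayed above 0 against that control, ERRFI1 at 0.93, ETS1 at 1.25, NCAM1 at least 1.81-fold higher, LOX at 0.69, MAML3 at 0.55, KLHL20 at 0.41, XIAP at 0.37 and QKI at 0.31. BCL2 stayed below 0 with both agents there (-1.10 and -0.58).

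The expressed targets were longer genes than most, and the mimic ratio moved with gene length on these arrays. Genomic span had a median of 71.5 kb over the 30 expressed targets, against 26.9 kb over 13170 expressed genes with a span. In 5 equal bins of expressed genes by span, the median mimic ratio over all genes went from -0.19 in the bin of shortest genes to 0.11 in the next to longest and 0.22 in the longest. Of the targets 7 lay in the next to longest bin (median mimic ratio 0.20, 6 above 0) and 14 in the longest (median 0.18, 10 above 0), while 2, 4 and 3 lay in the shorter bins. In the longest bin the medians of the targets and of all genes were 0.18 and 0.22, and in the next to longest 0.20 and 0.11. In the shorter bins they did not run together: from the shortest, the 2, 4 and 3 targets had medians of -0.04, 0.27 and -0.14, against -0.19, -0.12 and -0.02 over all genes. Across genes, which are not independent replicates, the Spearman rank correlation of span with the mimic ratio was 0.15 over the 30 targets and 0.24 over 13170 genes. With the antagomir the medians of all genes in these bins ran only from -0.02 to 0.05. The miR-429 mimic array also had lower spike-in signals than its control (mean log2 11.35 against 12.17 for the poly-A spikes) and a lower actin 3′ to 5′ signal ratio (2.63 against 3.41), while the antagomir pair was closer (11.82 against 11.74, and 3.07 against 3.12). The part of gene length and RNA handling in the mimic ratios was not tested.

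**Figure D4:**
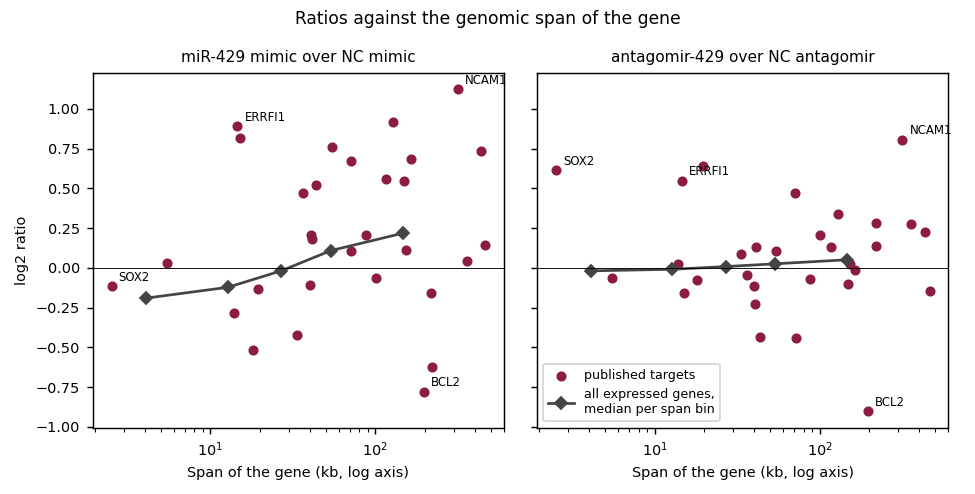
Log2 ratio (y axis) against the genomic span of the gene (kb, log axis) for the 30 expressed targets (red points), with the mimic on the left and the antagomir on the right. Dark diamonds are medians of all expressed genes in 5 bins of span, from -0.19 to 0.22 with the mimic and from -0.02 to 0.05 with the antagomir.

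Family members of these genes that were not on the target list were set beside them. Of 42 listed relatives 38 were measured and 32 expressed. With the mimic 20 of the 32 were above 0 (62.5% against 49.9% of all expressed genes, median log2 ratio 0.09). There 3 were 2-fold higher (9.38% against 5.25%) and 0 were lower (against 3.76%). With the antagomir 13 were above 0 (40.6% against 51.1%, median -0.11), 0 were 2-fold higher (against 3.72%) and 1 was lower by measured signals (3.12% against 3.53%). The antagomir-429 signal of that relative was under the filter (36.4, against 87.0 with the NC antagomir). With that signal raised to the filter, the difference was under 2-fold. In the target direction were 4 of 32 (12.5%), against 23.2% of all expressed genes. HIPK2, a kinase related to HIPK3, had signals of 75.3, 256, 236 and 245, so the NC mimic array stood alone (1.77 and 0.05). HIPK1, of the same family, had 194, 495, 305 and 548 and was higher with both agents (1.35 and 0.84). STARD13, related to DLC1, had 59.3, 128, 115 and 63.2 (1.11 and -0.86). SEPTIN7, a core septin, had 2386, 1350.1, 1630.3 and 1501, with ratios of -0.82 and -0.12. ATN1, related to RERE, had 0.72 and -0.17, and VASH1, related to VASH2, had 0.16 and -0.67.

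ZEB1 and ZEB2, the textbook targets of the same seed, gave little to compare with. ZEB1 had 1 probe set past the filter of 4, with signals of 80.1, 90.7, 123 and 65.2 (0.18 and -0.91). All 5 probe sets of ZEB2 were under the filter. Protein levels and the amount or activity of miR-429 in these cells were not analysed here, so these ratios describe mRNA signals alone.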

How the data were processed

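Total RNA from 4 groups of 1 array each was hybridised to Affymetrix U133 Plus 2.0 arrays. The authors deposited log2 signals made with MAS5, as the submitters' processing notes name it, with no version given in the sources used here. The unit and scale come from the values: back on the linear scale, every array had a mean signal of 500.1 once 2% was trimmed from both tails. Nothing was rescaled for the main values.

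Of 54675 probe sets, 62 controls were left out of gene counts; platform annotation, which can be old, named 1 gene for 41097, several for 1801 and none for 11777. Entrez identifiers of 41043 matched RefSeq's gene table of GRCh38.p14, used for symbols and gene spans only. Ratios are differences of log2 signals with no offset. Folds against an array under the filter are taken against it and written "at least". Scripts (Python 3.11.15, pandas 2.3.3) were tested on simulated data. All measured members are named; up to 6 relatives are named, those with the largest ratio among relatives above the filter on all arrays. Members and lists were chosen with earlier results of these data known.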

Additional observations from a re-analysis of the deposited data

How the results depend on the processing

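No paired analysis was possible because each group has 1 array. For the same reason no array could be left out. Values were recomputed with quantile normalization, median centring, 16 units added to each signal, the median over probe sets, plain probe sets first (names without a letter suffix), no filter, a 75th percentile filter (signal 265.6), the control of the other fraction, 1.5-fold for a count, and, added after the data were seen, 2 robust SDs of genes of like signal and signals under the filter raised to it.

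The median mimic ratio of the targets was 0.054 with median centring, where all genes shifted by as much. Counts past 2-fold are of 30 targets unless another number is given, with the share of all genes in brackets. With the mimic, 0 were higher under the offset (4.09%), the median over probe sets (4.87%) or low signals raised (4.2%). Under the 75th percentile filter 0 of 20 were (1.8%). Higher with the mimic were 2 of 36 with no filter (12.8%), 2 with the other control (5.36%) and 8 at 1.5-fold (14.5%). The count lower with the mimic was 1 with the other control (3.23%) and 2 at 1.5-fold (10.9%). With the antagomir, 1 of 29 was higher with plain probe sets (4.14%), 3 at 1.5-fold (9.35%) and 1 by robust SDs (4.61%). The count lower with the antagomir was 2 of 36 with no filter (12.2%) and 1 at 1.5-fold (8.29%). The target direction held 4 of 20 targets under the 75th percentile filter (22.4% of genes there) and between 7 and 9 under the other 8 settings. The 9 were found with the other control, and of them SOX2 alone was in the target direction by the main values. The antagomir ratio of KLHL20 went from -0.44 to 1.15 with plain probe sets first. Of single target ratios, 16 of 60 moved by more than the robust SD of like genes with the other control. With the median over probe sets 2 of 60 did, the antagomir ratios of MAML3 and RERE, and with plain probe sets 1 of 58. Ratios near 0 changed sign under centring for CFL2, NTRK2 and SEC23A with the mimic and MSN and FSCN1 with the antagomir. The causes were not tested. Single arrays and dim signals limit all of these values.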
